A study of Homo sapiens with 12 samples.

Results

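The 37 genes described here are genes of squamous differentiation and of antimicrobial secretion. They were listed by name, with earlier results of these data known. The list held 13 genes of the cornified envelope, 7 S100 genes and 6 kallikreins. It also held 5 secreted defence proteins and protease inhibitors, and 6 keratins and calmodulin-like proteins. All 37 were rows of the count table, which held 23459 genes, and 24 of them passed the filter on low counts that 14775 genes passed. The RNA came from MCF10A, a non-tumorigenic human mammary epithelial line grown in medium with horse serum, insulin, hydrocortisone, cholera toxin and EGF. All 12 libraries were from MCF10A cells with a doxycycline-inducible YAP5SA allele, a mutant of the coactivator YAP that the Hippo kinases cannot inactivate, delivered by lentivirus. The cells carried an empty vector or a JUN overexpression vector and received doxycycline (Dox, 100 ng/ml) or the solvent ethanol (EtOH), which gave 3 libraries each of JUN EtOH, JUN Dox, vector EtOH and vector Dox. The design asks how JUN, a subunit of the AP-1 transcription factor, alters the response to YAP.

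The libraries were checked first for the genes that had been manipulated. JUN was at 55, 35.5 and 52.2 CPM (counts scaled to library size) in the 3 vector EtOH libraries, at 188, 186 and 194 CPM in vector Dox, at 1399, 1374 and 1064 CPM in JUN EtOH and at 1325, 1274 and 1146 CPM in JUN Dox. All JUN vector libraries lay above all empty vector libraries, and the JUN level of vector cells itself rose on induction (log2 difference 1.99 ± 0.16 SE, adjusted p = 3.09e-07, edgeR). YAP1 was at 179 ± 10.5 (SD, n = 3) and 237 ± 31.5 CPM in vector cells with EtOH and with Dox, and at 234 ± 20.9 and 280 ± 79.3 CPM in JUN cells, and its difference on induction did not pass the test in vector cells (0.40 ± 0.16, adjusted p = 0.0819) or in JUN cells (0.26 ± 0.16, adjusted p = 0.308). Reads of the transgene and of the endogenous gene are not separated in these counts. The 6 basal epithelial markers (KRT5, KRT14, KRT17, TP63, CDH1 and ITGA6) summed to 3341 to 7061 CPM per library, the 4 luminal markers to 24.3 to 41.1 CPM and the 5 fibroblast and endothelial markers to 105 to 160 CPM, with PGR and CDH5 at 3 counts or fewer in every library. The libraries thus carried the basal markers of a mammary epithelial line. KRT5 and KRT17 alone averaged 4615 and 1662 CPM in vector EtOH, and the luminal list held no keratin. The sums therefore do not compare basal with luminal identity. Total counts were between 18594867 and 28993487 per library.

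Squamous epithelia build a cornified envelope beneath the plasma membrane as they mature. Transglutaminase cross-links precursors such as involucrin and the small proline-rich proteins onto a scaffold of plakins, and kallikreins, which are serine proteases, cut the junctions between the outer cells. Secreted inhibitors act beside them, among them cystatins against cysteine proteases and WAP-domain proteins against serine proteases. S100 proteins are small calcium-binding proteins, of which S100A8 and S100A9 pair as calprotectin, a metal-binding antimicrobial complex, and LCN2 (lipocalin 2) binds bacterial siderophores. Many of these genes lie together in the epidermal differentiation complex on chromosome 1, and involucrin is a textbook target of AP-1, which binds the letters TGANTCA.

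Those letters were searched in the proximal promoters, since JUN is an AP-1 subunit and YAP acts through TEAD factors. RefSeq promoter sequences (GRCh38.p14) were at hand for 26 of the 37 genes, not for TGM1, PPL, EVPL, SPRR2D, PI3, SLPI, CSTA, CST6, KLK8, KRT1 and KRT13, and the 250 bases before the annotated start were read. The AP-1 letters TGANTCA, which read the same on both strands, occurred in 10 of the 26 (IVL, SPRR1A, SPRR1B, SPRR2A, SPRR3, SBSN, SCEL, EMP1, S100A2 and LCN2), against 6.6% of all 27305 promoters. The CRE-type letters TGACGTCA occurred in 0 of the 26, against 1.77% of all, and the TEAD letters GGAATG, read on both strands, in 7 of the 26, against 11.9%. No match to 1 motif overlapped a match to another in these promoters. Some matches lie alike in related SPRR genes and may not be independent. TEAD letters begin 87, 90 and 91 bases before the start in SPRR1A, SPRR1B and SPRR3. AP-1 letters begin 108 bases before it in SPRR1A and 111 in SPRR1B. Of the 7 members lower with JUN in both comparisons, TGM1, PPL, EVPL and CST6 had no promoter to search, so the letters were looked for in S100A2, S100A14 and S100P alone. The promoters shown are those of LCN2, SCEL, SPRR2A and SBSN, which were higher in JUN cells in both comparisons, of IVL, which was called higher without induction only and passed the filter through JUN EtOH, and then those of S100A8 and S100A9, where none of the 3 motifs was found. Each is written 5′ to 3′ on the strand of the gene, and capitals mark AP-1 and TEAD letters.
LCN2 (chr9:128149203-128149452, plus strand): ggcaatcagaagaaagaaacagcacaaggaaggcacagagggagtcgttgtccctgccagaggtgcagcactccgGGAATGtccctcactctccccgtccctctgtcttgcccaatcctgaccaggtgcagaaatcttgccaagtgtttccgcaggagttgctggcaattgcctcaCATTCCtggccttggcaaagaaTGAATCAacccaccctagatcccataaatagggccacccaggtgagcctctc
SCEL (chr13:77535456-77535705, plus strand): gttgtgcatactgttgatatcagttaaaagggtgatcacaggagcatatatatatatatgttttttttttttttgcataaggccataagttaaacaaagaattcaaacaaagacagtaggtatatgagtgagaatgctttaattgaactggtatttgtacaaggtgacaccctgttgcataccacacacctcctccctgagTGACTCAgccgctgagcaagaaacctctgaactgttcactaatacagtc
SPRR2A (chr1:153057513-153057762, minus strand): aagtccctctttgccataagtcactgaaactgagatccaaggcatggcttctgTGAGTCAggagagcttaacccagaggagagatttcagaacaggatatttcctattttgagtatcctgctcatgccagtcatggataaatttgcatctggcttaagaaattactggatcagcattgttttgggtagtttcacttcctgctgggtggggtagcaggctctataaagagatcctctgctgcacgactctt
SBSN (chr19:35528312-35528561, minus strand): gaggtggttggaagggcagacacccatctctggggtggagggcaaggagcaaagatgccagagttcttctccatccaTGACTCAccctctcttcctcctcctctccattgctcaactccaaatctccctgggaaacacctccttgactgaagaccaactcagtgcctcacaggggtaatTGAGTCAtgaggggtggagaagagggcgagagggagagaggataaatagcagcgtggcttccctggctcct
IVL (chr1:152908296-152908545, plus strand): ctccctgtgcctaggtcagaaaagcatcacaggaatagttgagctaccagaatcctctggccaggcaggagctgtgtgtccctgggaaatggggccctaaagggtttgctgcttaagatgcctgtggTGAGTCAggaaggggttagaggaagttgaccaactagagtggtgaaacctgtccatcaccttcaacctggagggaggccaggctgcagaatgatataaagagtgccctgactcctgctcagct
S100A8 (chr1:153391189-153391438, minus strand): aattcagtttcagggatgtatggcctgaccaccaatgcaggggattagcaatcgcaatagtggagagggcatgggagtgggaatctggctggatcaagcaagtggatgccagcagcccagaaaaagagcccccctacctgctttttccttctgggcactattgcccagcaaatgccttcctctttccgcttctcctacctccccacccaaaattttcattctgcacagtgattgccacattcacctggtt
S100A9 (chr1:153357604-153357853, plus strand): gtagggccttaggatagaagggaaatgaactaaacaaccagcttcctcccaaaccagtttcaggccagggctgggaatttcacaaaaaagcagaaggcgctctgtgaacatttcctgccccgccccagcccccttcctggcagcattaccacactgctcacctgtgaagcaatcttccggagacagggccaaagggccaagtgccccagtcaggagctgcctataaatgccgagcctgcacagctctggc

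In these promoters the AP-1 letters begin 52 bases before the start in LCN2, 49 in SCEL, 197 in SPRR2A, 123 in IVL, and 173 and 71 in SBSN. LCN2 also holds TEAD letters that begin 175 and 74 bases before the start. The letters are a description of the sequence, and binding was not measured in these libraries. EMP1, S100A2 and SPRR1B hold the AP-1 letters too and were not called higher in JUN cells in either comparison given here. S100A2, where the letters begin 52 bases before the start, was called lower in both (-0.98 without and -1.28 with induction). EMP1 was called lower with induction (-0.28). SPRR1A and SPRR3 did not pass the filter on low counts.

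The 37 genes fell into a detected and an undetected part. In vector EtOH cells the highest levels per length were those of S100A2 (1426 CPM per kb of exon), S100A14 (859), S100A16 (514), S100A9 (299), SLPI (117), PI3 (115) and S100A8 (49.4). The plakins and EMP1 stood between 14.7 and 27.5 CPM per kb, TGM1 at 6.91, and the envelope precursors IVL and SPRR2A at 0.259 each. The 13 genes below the filter were SPRR1A, SPRR3, all 6 kallikreins (KLK5, KLK6, KLK7, KLK8, KLK10 and KLK11), the suprabasal keratins KRT1, KRT4 and KRT13, and CALML3 and CALML5, calmodulin-like proteins of stratified epithelia. Their highest count in any of the 12 libraries was 5. KLK5, KLK10, KLK11 and KRT1 had 0 reads in all 12. Of the 24 genes tested, 16 reached the count of 10 in every library of all 4 groups, 3 in 3 groups (CNFN, SBSN and SCEL), 1 in 2 groups (SPRR2D) and 4 in 1 group only (IVL, SPRR1B, SPRR2A and S100A7). IVL, SPRR2A and S100A7 reached it in JUN EtOH alone and SPRR2D in the JUN groups alone, so these genes were tested because of the groups where they are high, and counts over the 24 are given as a description. Their calls are therefore also given from the fit without the filter, in which every gene with a read in any library was kept.

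JUN overexpression without induction (JUN EtOH against vector EtOH) gave 9 members higher and 7 lower of 24 at an adjusted p under 0.05 (edgeR quasi-likelihood test over all 14775 genes), against 39.0% of all genes in either direction, 20.1% higher and 18.9% lower. With induction (JUN Dox against vector Dox) 6 were higher and 8 lower, against 35.6% of all genes, 18.4% higher and 17.2% lower. These comparisons share no library. The 6 members higher in both were SPRR2A, SBSN, SCEL, S100A8, S100A9 and LCN2 (13.9% of all genes were), and the 7 lower in both were TGM1, PPL, EVPL, S100A2, S100A14, S100P and CST6 (12.3% of all genes were). None was called in opposite directions. The groups did not overlap for 17 members without and 15 with induction, against 57.8% and 43.4% of all genes. In bulk RNA, fewer cells of a type and less RNA per cell cannot be told apart. The median log2 difference of the 24 was 0.18 without and -0.23 with induction (also -0.23 with S100A7 at its bound), and the medians of all genes were 0.00056 and 0.003.

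YAP5SA induction gave 5 members higher and 6 lower of 24 in vector cells, against 30.1% of all genes, 15.6% higher and 14.4% lower. In JUN cells 2 were higher and 8 lower, against 21.4% of all genes, 11.2% higher and 10.3% lower. These comparisons share no library either. TGM1 and SCEL were higher in both (8.45% of all genes), and PPL, S100A8, S100A9, S100A14 and S100A16 were lower in both (7.8%). The groups did not overlap for 13 members in vector and 16 in JUN cells, against 43.9% and 39.3% of all genes. The median log2 difference of the 24 was -0.33 for induction in vector cells and -0.50 for JUN cells, and the medians of all genes were 0.0072 and 0.0032. The count in JUN cells was 10, and it was 6 without JUN Dox replicate 1, 6 without JUN Dox replicate 3, 5 without JUN EtOH replicate 1 and 6 without JUN EtOH replicate 3. The shares of all genes called in these smaller fits were not counted, so the lower counts describe the members alone. JUN Dox replicate 1 was the lowest of its group for 19 of the 24, against 42.4% of all genes.

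The basal epithelial markers moved in the same comparisons. They summed to 6719 to 7061 CPM in vector EtOH, 3599 to 4566 CPM in vector Dox, 5394 to 6934 CPM in JUN EtOH and 3341 to 5290 CPM in JUN Dox. On induction 4 of the 6 were lower in vector cells (KRT5, KRT14, KRT17 and TP63) and 4 in JUN cells (KRT14, KRT17, TP63 and CDH1). Of all genes 14.4% and 10.3% were lower in these comparisons. With JUN, KRT14 was higher by 1.20 ± 0.26 without induction (adjusted p = 0.00229) and by 2.07 ± 0.27 with it (adjusted p = 3.34e-05), and TP63, the master regulator of basal cells, was higher by 0.94 ± 0.14 (adjusted p = 0.000133) and 1.25 ± 0.15 (adjusted p = 1.92e-05). ITGA6 was also higher with JUN in both comparisons and KRT17 with induction. CDH1 went the other way with induction, lower with JUN by 1.14 ± 0.12 on the log2 scale (edgeR, adjusted p = 5.06e-06). The JUN differences of KRT5 were -0.39 ± 0.17 without and -0.08 ± 0.17 with induction (edgeR, adjusted p = 0.0807 and 0.739). CDH1, which encodes E-cadherin, averaged 129 CPM in both vector groups, 120 CPM in JUN EtOH and 58.7 CPM in JUN Dox, and fell by 1.03 ± 0.12 on induction in JUN cells (adjusted p = 2.67e-05). The part of these markers in the members' differences was not tested.

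**Figure D1:**
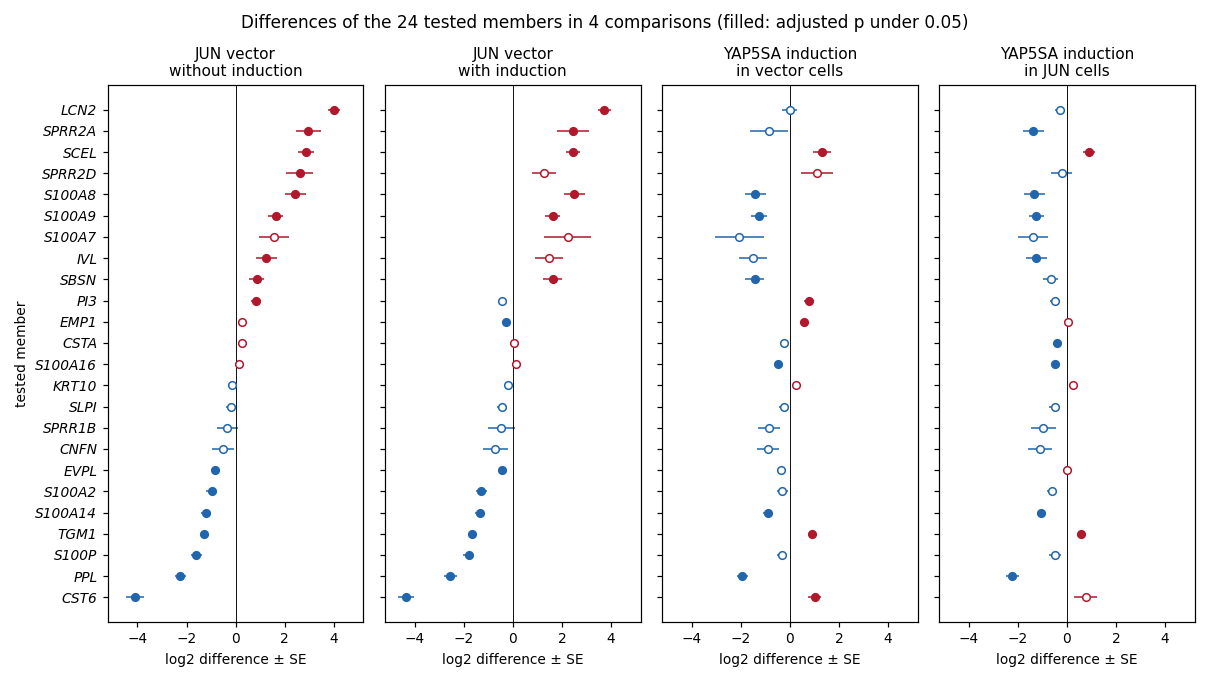
Log2 difference (x axis, bars SE) of each of the 24 tested genes (y axis, ordered by the JUN difference without induction) in 4 comparisons, red for higher and blue for lower, filled where the adjusted p was under 0.05. LCN2 (4.01 and 3.73) and CST6 (-4.10 and -4.35) lie at the ends of both JUN panels. S100A7 in comparisons with vector Dox is a fitted value against a group at 3 counts or fewer per library.

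Among the proteins of the cornified envelope, the genes called in both JUN comparisons went in both directions: scaffold plakins and the cross-linking enzyme were lower in JUN cells, and sciellin and suprabasin were higher, as was SPRR2A, which passed the filter through JUN EtOH alone. PPL encodes periplakin, a plakin that anchors the envelope to keratin filaments (chr16:4932508-5010742, GRCh37, minus strand, 23 exons after merging). PPL was at 189, 166 and 188 CPM in vector EtOH, at 28.4, 62.7 and 51.8 CPM in vector Dox, at 31.1, 43.2 and 40 CPM in JUN EtOH and at 5.27, 9.25 and 9.84 CPM in JUN Dox. Either manipulation alone brought PPL below every vector EtOH library, and the libraries with both lay below all others. PPL fell by 1.93 ± 0.24 on the log2 scale on induction in vector cells (adjusted p = 2.86e-05) and by 2.22 ± 0.26 in JUN cells (adjusted p = 2.97e-05). With JUN it fell by 2.25 ± 0.24 without induction (adjusted p = 6.82e-06) and by 2.54 ± 0.26 with it (adjusted p = 3.95e-06). The mean of JUN Dox was 8.12 CPM against 181 CPM in vector EtOH.

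EVPL, the partner plakin envoplakin, had smaller differences. It was at 109, 102 and 113 CPM in vector EtOH, 65.3, 89.3 and 99.4 CPM in vector Dox, 54.7, 57.9 and 70.3 CPM in JUN EtOH and 49, 58.6 and 77.7 CPM in JUN Dox. EVPL fell by 0.83 ± 0.17 with JUN without induction (adjusted p = 0.00157), and these groups did not overlap. With induction it fell by 0.45 ± 0.17 (adjusted p = 0.0481) and the groups overlapped. That call was lost without JUN Dox replicate 1 (-0.31), JUN Dox replicate 2 (-0.42), vector Dox replicate 2 (-0.40) or vector Dox replicate 3 (-0.32). It was also lost with only the libraries of the comparison (-0.44, edgeR, adjusted p = 0.115) and without the filter (-0.44, adjusted p = 0.0558).

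TGM1, the membrane-bound transglutaminase that cross-links the envelope (chr14:24718320-24733638, minus strand, 16 exons), moved in opposite directions with the 2 manipulations. TGM1 was at 26.7, 27 and 23.7 CPM in vector EtOH and at 49.7, 49.9 and 46.7 CPM in vector Dox, where it was higher by 0.92 ± 0.12 (adjusted p = 4.47e-05). It was at 9.2, 12 and 10.1 CPM in JUN EtOH and at 13.1, 16.6 and 17.2 CPM in JUN Dox, higher by 0.58 ± 0.13 (adjusted p = 0.00465). In JUN cells every library lay below every vector library, with differences of -1.30 ± 0.13 (adjusted p = 2.39e-06) and -1.64 ± 0.12 (adjusted p = 1.73e-07). The 4 groups did not overlap one another, and these 4 calls stood under every alternative setting tried.

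SCEL encodes sciellin, an envelope precursor (chr13:78109809-78219398, plus strand, 32 exons), and was higher in all 4 comparisons. SCEL was at 0.152, 0.748 and 0.494 CPM in vector EtOH, 1.31, 0.946 and 1.07 CPM in vector Dox, 3.17, 3.62 and 2.96 CPM in JUN EtOH and 6.42, 6.09 and 5.72 CPM in JUN Dox. The groups followed one another without overlap. SCEL was higher with JUN by 2.86 ± 0.33 without induction (adjusted p = 1.11e-05) and by 2.45 ± 0.27 with it (adjusted p = 8.78e-06). Induction raised SCEL by 1.31 ± 0.37 in vector cells (adjusted p = 0.0141) and by 0.90 ± 0.24 in JUN cells (adjusted p = 0.016). The call in vector cells was lost without vector EtOH replicate 1 (0.84) and with only the libraries of the comparison (1.28, edgeR, adjusted p = 0.0714). The call in JUN cells was lost without JUN Dox replicate 2 (0.90), JUN EtOH replicate 1 (0.88) or JUN EtOH replicate 3 (0.84).

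The small proline-rich proteins are flexible cross-bridges of the envelope, and those detected were low. SPRR2A was at 0.342, 0.0499 and 0.135 CPM in vector EtOH, 0.174, 0.0901 and 0.0413 CPM in vector Dox, 1.23, 1.1 and 2.16 CPM in JUN EtOH and 0.401, 0.778 and 0.533 CPM in JUN Dox. Every JUN library lay above every vector library, with differences of 2.96 ± 0.52 (adjusted p = 0.000483) and 2.44 ± 0.65 (adjusted p = 0.00914). Without the filter they were 2.97 and 2.45 (edgeR, adjusted p = 0.000148 and 0.00591). Within JUN cells SPRR2A was lower on induction by 1.37 ± 0.43 on the log2 scale (adjusted p = 0.034). JUN EtOH, the higher group here, is the group through which SPRR2A passed the filter, and the call stood without the filter. It was lost without JUN Dox replicate 1 (-1.19), JUN Dox replicate 3 (-1.31), JUN EtOH replicate 1 (-1.49) or JUN EtOH replicate 3 (-1.01). SPRR2D was at 0.038, 0.0499 and 0.269 CPM in vector EtOH, 0.392, 0.18 and 0.207 CPM in vector Dox, 0.572, 0.843 and 0.798 CPM in JUN EtOH and 0.702, 0.692 and 0.533 CPM in JUN Dox. It was higher with JUN without induction by 2.60 ± 0.56 (adjusted p = 0.00231), and by 3.94 without vector EtOH replicate 3. Without the filter that difference was 2.60 (edgeR, adjusted p = 0.00215). The SPRR2D difference with induction was 1.28 ± 0.49 (adjusted p = 0.0548), which passed without vector Dox replicate 1 (1.70), and that on induction in vector cells was 1.11 ± 0.66 (adjusted p = 0.228), which passed without vector EtOH replicate 3 (2.44). Of 75-base windows of the transcripts, 25.2% in SPRR2A and 8.8% in SPRR2D also occur in other SPRR2 genes, so the split of reads between these copies is uncertain. SPRR1B was at 0.176 to 0.718 CPM over the 12 libraries and passed no test.

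IVL, involucrin, an early precursor of the envelope, was at 0.19, 0.898 and 0.583 CPM in vector EtOH, 0.174, 0.225 and 0.165 CPM in vector Dox, 1.41, 0.843 and 1.6 CPM in JUN EtOH and 0.451, 0.648 and 0.497 CPM in JUN Dox. JUN EtOH was the highest group, and vector EtOH and JUN EtOH overlapped. IVL was higher with JUN without induction by 1.24 ± 0.43 (adjusted p = 0.0331), which was lost without JUN EtOH replicate 1 (1.16), JUN EtOH replicate 3 (1.05), vector EtOH replicate 1 (0.79) or vector EtOH replicate 3 (1.30). Without the filter it was 1.24 (edgeR, adjusted p = 0.0385). The difference with induction was 1.48 ± 0.56 (adjusted p = 0.0529). It passed with DESeq2 (1.5, adjusted p = 0.0422) and with only the libraries of the comparison (1.49, edgeR, adjusted p = 0.0389). IVL was lower on induction in JUN cells by 1.25 ± 0.43 on the log2 scale (adjusted p = 0.0486), which was lost without JUN Dox replicate 1 (-1.16), replicate 2 (-1.41) or replicate 3 (-1.19) and without JUN EtOH replicate 1 (-1.18) or replicate 3 (-1.07), and without the filter (-1.26, adjusted p = 0.0555). In vector cells the difference on induction was -1.49 ± 0.57 (adjusted p = 0.0604). It passed without vector EtOH replicate 1 (-1.94) and with DESeq2 (-1.54, adjusted p = 0.0417).

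SBSN, suprabasin, a secreted protein of suprabasal cells, was at 0.684, 1.05 and 1.57 CPM in vector EtOH, 0.436, 0.225 and 0.537 CPM in vector Dox, 1.76, 2.11 and 2.07 CPM in JUN EtOH and 1.1, 1.12 and 1.49 CPM in JUN Dox. The JUN libraries were above the vector libraries of the same treatment without overlap. SBSN was higher with JUN by 1.62 ± 0.38 with induction (adjusted p = 0.00408) and by 0.85 ± 0.32 without (adjusted p = 0.044). The second call was lost without JUN EtOH replicate 1 (0.93), replicate 2 (0.81) or replicate 3 (0.82) and without vector EtOH replicate 1 (0.59) or replicate 2 (0.83). It was also lost without the filter (0.86, edgeR, adjusted p = 0.0507). Induction in vector cells lowered SBSN by 1.43 ± 0.38 on the log2 scale (adjusted p = 0.0112), a call lost without vector EtOH replicate 3 (-1.08), and the difference in JUN cells was -0.66 ± 0.31 (adjusted p = 0.151). CNFN, cornifelin, was at 0.216 to 2.4 CPM and passed no test, with differences of -0.90 ± 0.45 and -1.10 ± 0.49 on induction (adjusted p = 0.146 and 0.135).

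EMP1, a small membrane protein made by squamous cells, was at 213, 209 and 225 CPM in vector EtOH, 308, 354 and 304 CPM in vector Dox, 274, 266 and 233 CPM in JUN EtOH and 272, 274 and 248 CPM in JUN Dox. Vector Dox was the highest group and did not overlap the other 3. EMP1 rose by 0.58 ± 0.10 on induction in vector cells (adjusted p = 0.000579), and its difference in JUN cells was 0.04 ± 0.10 (adjusted p = 0.837). The difference between these inductions was -0.54 ± 0.14 and did not pass (adjusted p = 0.109). With induction EMP1 was lower in JUN cells by 0.28 ± 0.10 on the log2 scale (adjusted p = 0.0411). That call was lost without any of the 3 JUN Dox libraries (-0.30, -0.31 and -0.24 without replicates 1, 2 and 3) and without vector Dox replicate 2 (-0.20) or replicate 3 (-0.32). It was also lost with only the libraries of the comparison (-0.27, edgeR, adjusted p = 0.143) and without the filter (-0.27, adjusted p = 0.0872). The difference with JUN without induction was 0.26 ± 0.10 (adjusted p = 0.0588), which passed without JUN EtOH replicate 3 (0.32).

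**Figure D2:**
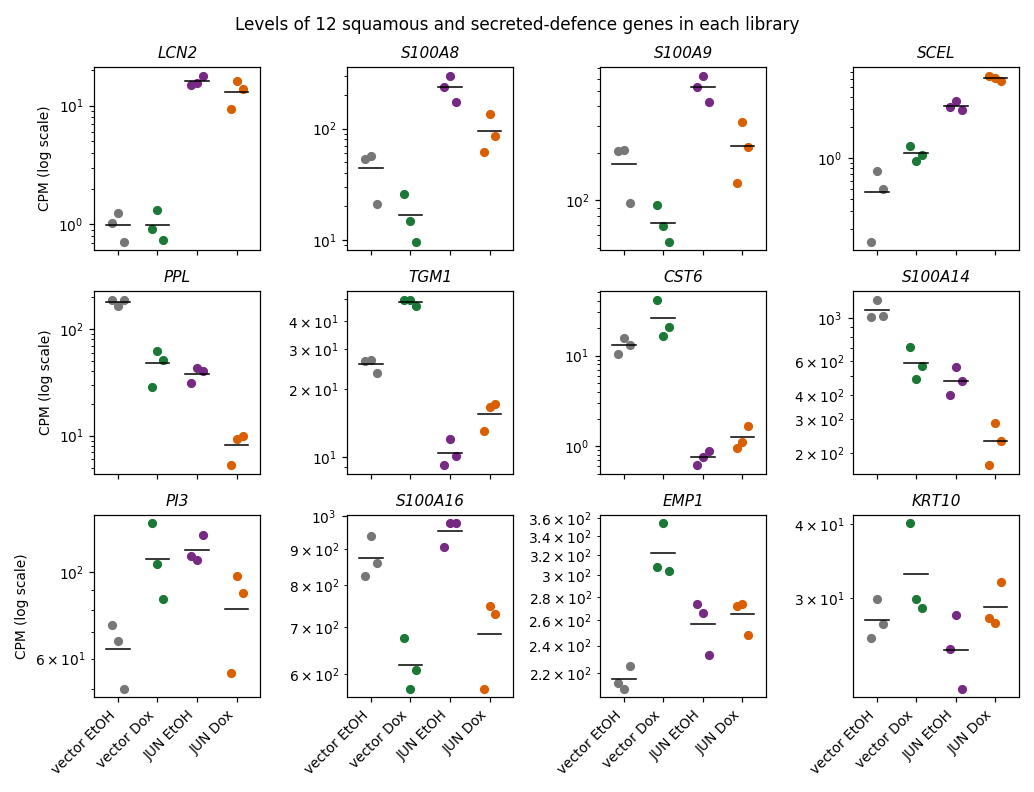
CPM (y axis, log scale, a scale of its own in each panel) of 12 genes in the 3 libraries of each of 4 groups (x axis), with points for libraries and bars for group means. LCN2 is near 1 CPM in both vector groups and at 9.33 to 17.8 CPM in the JUN groups, while PPL falls from 181 to 8.12 CPM from vector EtOH to JUN Dox.

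Of the 7 S100 genes, both subunits of calprotectin were higher with JUN in both comparisons, S100A2, S100A14 and S100P were lower in both, and S100A16 and S100A7 were called in neither. S100A8 was at 53.9, 57 and 21.1 CPM in vector EtOH, 25.7, 14.7 and 9.67 CPM in vector Dox, 237, 299 and 174 CPM in JUN EtOH and 62.1, 136 and 86.6 CPM in JUN Dox. All 6 JUN libraries lay above all 6 vector libraries. S100A8 was higher with JUN by 2.43 ± 0.43 without induction (adjusted p = 0.000954) and by 2.51 ± 0.44 with it (adjusted p = 0.000975). Induction lowered S100A8 by 1.40 ± 0.43 on the log2 scale in vector cells (adjusted p = 0.0284), where the groups overlapped, and by 1.32 ± 0.41 in JUN cells (adjusted p = 0.0388). The call in vector cells was lost without vector Dox replicate 2 (-1.32) or replicate 3 (-1.12) and without vector EtOH replicate 1 (-1.22) or replicate 2 (-1.18). The call in JUN cells was lost without JUN Dox replicate 1 (-1.09) or replicate 3 (-1.25) and without JUN EtOH replicate 1 (-1.32) or replicate 2 (-1.11).

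S100A9, the neighbour of S100A8 on chromosome 1, had the same order of groups at higher levels. S100A9 was at 206, 211 and 96.5 CPM in vector EtOH, 93, 68.8 and 54.6 CPM in vector Dox, 529, 626 and 428 CPM in JUN EtOH and 130, 316 and 221 CPM in JUN Dox. JUN raised S100A9 by 1.62 ± 0.32 without induction (adjusted p = 0.00112) and by 1.62 ± 0.32 with it (adjusted p = 0.00125). Induction lowered it by 1.25 ± 0.32 on the log2 scale in vector cells (adjusted p = 0.00784) and by 1.25 ± 0.31 in JUN cells (adjusted p = 0.0104). The difference between the inductions was 0.08 ± 0.59 for S100A8 (adjusted p = 0.989) and 0.00089 ± 0.42 for S100A9 (adjusted p = 1).

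LCN2 (chr9:130911350-130915732, GRCh37, plus strand, 8 exons) showed the largest rise with JUN of the 24. It was at 1.03, 1.25 and 0.718 CPM in vector EtOH, 0.916, 1.31 and 0.744 CPM in vector Dox, 14.9, 15.6 and 17.8 CPM in JUN EtOH and 9.33, 16.1 and 13.9 CPM in JUN Dox. The JUN libraries were far above the vector libraries and the Dox and EtOH libraries overlapped within each vector. JUN raised LCN2 by 4.01 ± 0.25 without induction (16.1-fold, adjusted p = 2.93e-08) and by 3.73 ± 0.25 with it (13.3-fold, adjusted p = 4.81e-08). Induction gave -0.01 ± 0.32 in vector cells (adjusted p = 0.981) and -0.29 ± 0.19 in JUN cells (adjusted p = 0.322).

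S100A8, S100A9 and LCN2 are also made in large amounts by neutrophils and monocytes, so leukocyte markers were read beside them. Of 8 markers, PTPRC, CSF3R, ELANE and FCGR3B were at 3 counts or fewer in every library, and ITGAM was below the filter too. CD14, CD68 and MPO were tested. CD68, a lysosomal protein that many cell types make, was higher with JUN by 1.55 ± 0.12 without induction (adjusted p = 2.29e-07) and by 1.78 ± 0.12 with it (adjusted p = 6.67e-08). MPO, from means of 0.771 and 0.797 CPM in vector EtOH and vector Dox, was higher without induction by 1.75 ± 0.36 (adjusted p = 0.00153), and its difference with induction was 0.96 ± 0.37 (adjusted p = 0.0527). CD14 fell with JUN by 1.41 ± 0.21 on the log2 scale without induction (adjusted p = 0.000109) and by 0.93 ± 0.24 with it (adjusted p = 0.00834). The 8 markers summed to 54.9 to 60.0 CPM in vector EtOH, 23.5 to 25.2 CPM in vector Dox, 89.8 to 106 CPM in JUN EtOH and 54.0 to 73.4 CPM in JUN Dox. Their part in the result was not tested.

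S100A2, an abundant S100 protein of basal epithelia, was at 1947, 2513 and 2155 CPM in vector EtOH, 2473, 1224 and 1691 CPM in vector Dox, 995, 1222 and 1140 CPM in JUN EtOH and 580, 874 and 768 CPM in JUN Dox. JUN lowered S100A2 by 0.98 ± 0.22 on the log2 scale without induction (adjusted p = 0.0027) and by 1.28 ± 0.22 with it (adjusted p = 0.000395), without overlap. Its difference on induction in vector cells was -0.30 ± 0.21 (adjusted p = 0.328), and it passed without vector Dox replicate 1 (-0.60), the highest library of its group. In JUN cells that difference was -0.60 ± 0.21 (adjusted p = 0.0621).

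S100A14, a membrane-associated epithelial S100 protein, fell with both manipulations, like PPL. It was at 1014, 1247 and 1028 CPM in vector EtOH, 708, 485 and 567 CPM in vector Dox, 398, 556 and 471 CPM in JUN EtOH and 173, 287 and 232 CPM in JUN Dox. Only vector Dox and JUN EtOH overlapped. S100A14 fell by 0.90 ± 0.19 (adjusted p = 0.00203) and 1.04 ± 0.19 (adjusted p = 0.00111) on induction in vector and JUN cells, and by 1.21 ± 0.19 (adjusted p = 0.000189) and 1.35 ± 0.19 (adjusted p = 7.21e-05) with JUN without and with induction.

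S100A16, its neighbour on chromosome 1, was called for induction alone. It was at 825, 938 and 860 CPM in vector EtOH and 675, 572 and 609 CPM in vector Dox, and at 907, 978 and 978 CPM in JUN EtOH and 573, 749 and 729 CPM in JUN Dox. Every Dox library lay below every EtOH library. S100A16 fell by 0.50 ± 0.12 in vector cells (adjusted p = 0.00617) and by 0.48 ± 0.12 in JUN cells (adjusted p = 0.0109), and its JUN differences were 0.13 ± 0.12 and 0.15 ± 0.12 (adjusted p = 0.432 and 0.373).

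S100P, a small secreted S100 protein encoded on chromosome 4, was at 7.64, 8.88 and 6.55 CPM in vector EtOH, 7.67, 5.68 and 5.29 CPM in vector Dox, 2.07, 2.74 and 2.72 CPM in JUN EtOH and 1.2, 2.38 and 1.71 CPM in JUN Dox. JUN lowered S100P by 1.61 ± 0.23 (adjusted p = 7.89e-05) and by 1.80 ± 0.24 (adjusted p = 3.96e-05) on the log2 scale, and no JUN library reached a vector library. S100A7, psoriasin, an antibacterial protein of skin, had 13, 1 and 4 reads in vector EtOH, 3, 1 and 0 reads in vector Dox, 18, 18 and 16 reads in JUN EtOH and 1, 10 and 10 reads in JUN Dox. It passed no test in the 4 comparisons. Its difference with JUN without induction was 1.56 ± 0.62 (adjusted p = 0.0587), and it passed without vector EtOH replicate 1 (2.65), the library with the 13 reads. With induction the fitted difference of S100A7 was 2.23 ± 0.95 (edgeR, adjusted p = 0.08), and JUN Dox and vector Dox overlapped. The mean of JUN Dox was 2.15-fold the floor of 3 counts per library in vector Dox. That ratio leaves out the spread of JUN Dox, where replicate 1 had 1 read. The fitted difference passed without JUN Dox replicate 1 (2.66).

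Among the secreted inhibitors, CST6 fell most with JUN. CST6 encodes cystatin E/M, a secreted inhibitor of cysteine proteases in skin (chr11:65779479-65780976, GRCh37, plus strand, 3 exons). It was at 10.3, 15.6 and 13.2 CPM in vector EtOH, 41.4, 16.5 and 20.6 CPM in vector Dox, 0.616, 0.759 and 0.892 CPM in JUN EtOH and 0.953, 1.12 and 1.67 CPM in JUN Dox. The vector and JUN libraries were separated by a wide gap, with differences of -4.10 ± 0.38 without induction (17.2-fold lower, adjusted p = 1.27e-06) and -4.35 ± 0.34 with it (20.4-fold lower, adjusted p = 2.54e-07). Induction raised CST6 by 1.01 ± 0.27 in vector cells (adjusted p = 0.0111). That call was lost without vector Dox replicate 1 (0.50) or vector EtOH replicate 1 (0.86). In JUN cells the difference on induction was 0.76 ± 0.47 (adjusted p = 0.293).

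PI3, elafin, a WAP-domain inhibitor of elastase that transglutaminase fixes to the envelope, was the member whose response to induction differed between the vectors. PI3 was at 73.2, 66.5 and 50.1 CPM in vector EtOH, 133, 105 and 85.3 CPM in vector Dox, 110, 107 and 124 CPM in JUN EtOH and 55.2, 97.6 and 88.1 CPM in JUN Dox. Either manipulation alone gave levels above all vector EtOH libraries, and JUN Dox overlapped both vector groups. PI3 rose by 0.77 ± 0.20 on induction in vector cells (adjusted p = 0.00893), a call lost without vector EtOH replicate 3 (0.62), and by 0.84 ± 0.20 with JUN without induction (adjusted p = 0.00422). In JUN cells the difference on induction was -0.50 ± 0.20 (adjusted p = 0.0889), and the JUN difference with induction was -0.42 ± 0.20 (adjusted p = 0.107). The interaction, induction in JUN cells minus induction in vector cells, was -1.27 ± 0.28 (adjusted p = 0.0408), against 1.12% of all genes called for the interaction, 0.291% higher and 0.826% lower. It was -1.04 to -1.43 over 17 alternatives and lost its call in 11 of them. Those included 9 of the 12 fits that left a library out, all but the ones without JUN Dox replicate 1, JUN Dox replicate 2 or vector Dox replicate 3.

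The other inhibitors varied little. SLPI, an antimicrobial WAP-domain inhibitor encoded near PI3 on chromosome 20, was at 73.9, 82.2 and 53.9 CPM in vector EtOH, 83.9, 48.9 and 46.6 CPM in vector Dox, 55.4, 67.9 and 61.9 CPM in JUN EtOH and 34.8, 53 and 43.5 CPM in JUN Dox. JUN Dox lay below both EtOH groups, with 53 against 53.9 CPM in the nearest libraries of JUN Dox and vector EtOH, and no test was passed. Its difference on induction in vector cells was -0.23 ± 0.21 (adjusted p = 0.463), and it passed without vector Dox replicate 1 (-0.56). CSTA, cystatin A, a cytosolic inhibitor that is also an envelope component, was at 13.3 to 22.5 CPM over the 12 libraries. It was called once, lower on induction in JUN cells by 0.40 ± 0.13 on the log2 scale (adjusted p = 0.0396), a call lost without JUN Dox replicate 1 (-0.32) or replicate 3 (-0.41) and without JUN EtOH replicate 1 (-0.46), replicate 2 (-0.37) or replicate 3 (-0.38). KRT10, a suprabasal keratin and the sole member of its group to be tested, was at 21 to 40.1 CPM and its 4 differences lay between -0.18 and 0.26, with adjusted p of 0.179 or more. It shares 61 exon bases with KRT10-AS1 on the other strand, and whether the counting used strand is not given in the sources used here.

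**Figure D3:**
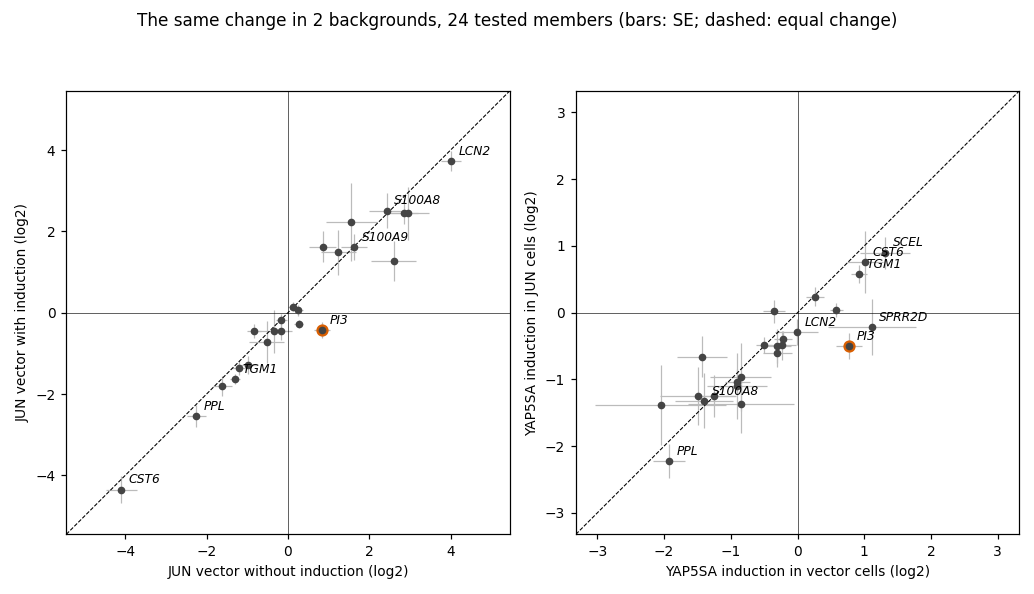
Log2 difference with SE of the 24 tested genes for JUN without (x axis) against with induction (y axis, left), and for induction in vector (x axis) against JUN cells (y axis, right), with a dashed line where both are equal. PI3, in orange, lies below the line in both panels (0.84 and -0.42 on the left, 0.77 and -0.50 on the right).

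The interaction passed for 1 of 24 genes, with SEs of 0.14 to 1.13 over the 24, and a gene that missed the threshold is not shown to respond alike in both. The differences of the 15 members with a mean of at least 5 CPM were counted separately: JUN without induction gave 4 higher and 6 lower, and with induction 3 higher and 7 lower, while induction gave 4 higher and 5 lower in vector cells and 1 higher and 6 lower in JUN cells. The shares of all genes called are those given above, 20.1% higher and 18.9% lower, 18.4% and 17.2%, 15.6% and 14.4%, and 11.2% and 10.3%. SPRR2A, SBSN and SCEL, higher with JUN in both comparisons, are below this level.

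Of the 24 tested genes, 10 lie in the epidermal differentiation complex, the stretch of chromosome 1 from S100A10 to S100A1 (chr1:151955391-153604515, GRCh37). It held 62 genes of the count table, of which 21 were tested and 30 were at 3 counts or fewer in every library. With JUN without induction 8 of the 21 were higher and 2 lower, and with induction 7 were higher and 3 lower. Of all genes 20.1% were higher and 18.9% lower without induction, and 18.4% and 17.2% with it. The 8 that rose without induction were IVL, SPRR2A, SPRR2D, S100A8 and S100A9 together with S100A11, TCHH and LCE3D, which are no members and are named here after their values were seen, and S100A2 and S100A14 fell. IVL, SPRR2A, SPRR2D and LCE3D reached the count of 10 in every library of JUN groups alone, so the 8 is a description. On induction 0 were higher and 5 lower in vector cells, and 0 higher and 8 lower in JUN cells, against 14.4% and 10.3% of all genes lower. The kallikrein cluster from KLK1 to KLK14 (chr19:51322402-51587502) held 16 genes, of which 0 were tested and 14 were at 3 counts or fewer in every library.

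**Figure D4:**
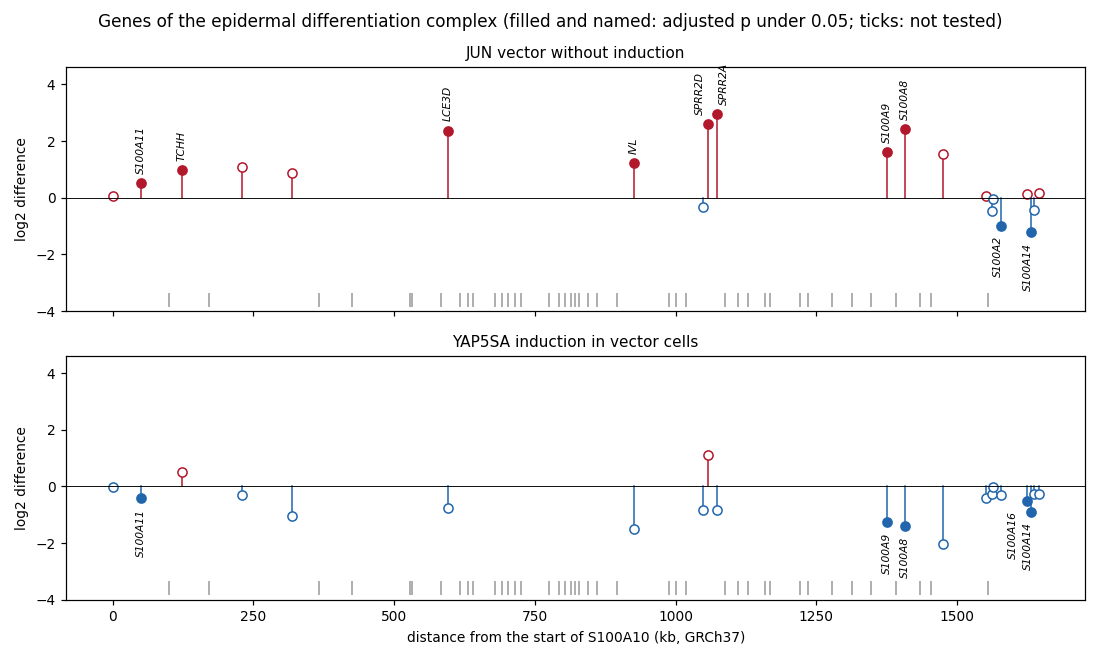
Log2 difference (y axis) of the 21 tested genes of the epidermal differentiation complex by distance from the start of S100A10 (x axis, kb) for JUN without induction (top) and for induction in vector cells (bottom), with named filled points at an adjusted p under 0.05 and grey ticks for genes not tested. In the top panel SPRR2A (2.96), SPRR2D (2.60), S100A8 (2.43) and LCE3D (2.37) are the highest, and in the bottom panel every filled point is below 0. SPRR2A, SPRR2D and LCE3D reached the count of 10 in every library of JUN groups alone.

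A further 105 genes of the same programme, also listed by name with earlier results known, were counted in the same fit. Of these, 39 were tested. Several of them reached the count of 10 in every library of JUN groups alone, LCE3D among them, and another in vector EtOH alone. Such genes were tested because of the groups where they are high, so counts over these lists are given as a description. JUN without induction gave 18 higher and 3 lower of the 39, and with induction 18 higher and 6 lower, against 20.1% higher and 18.9% lower of all genes without induction and 18.4% and 17.2% with it. Induction gave 2 higher and 10 lower in vector cells and 1 higher and 13 lower in JUN cells, against 15.6% higher and 14.4% lower of all genes and 11.2% and 10.3%. Of 17 further envelope genes tested, 9 were higher and 3 lower with JUN without induction. In the same comparison, 5 were higher and 0 lower of 13 further S100, antimicrobial and protease inhibitor genes tested. Of 2 further genes of the kallikrein list, both inhibitors, 0 were called in it. With induction, JUN gave 10 higher and 3 lower, 3 and 2, and 0 and 1 for these lists in that order. Induction gave 1 higher and 3 lower, 1 and 3, and 0 and 1 in vector cells. In JUN cells it gave 0 and 4, 1 and 6, and 0 and 1. RNASE7, an antimicrobial ribonuclease of skin, was at 2.47, 1.65 and 1.88 CPM in vector EtOH, 4.36, 4.24 and 2.93 CPM in vector Dox, 12.2, 9.94 and 12.6 CPM in JUN EtOH and 19.1, 18.7 and 18.1 CPM in JUN Dox. Its 4 groups did not overlap and rose in that order, as those of SCEL did. KRT80, an epithelial keratin, was at 63.8 ± 5.24 (SD, n = 3) and 94.6 ± 4.55 CPM in vector EtOH and vector Dox and at 4.8 ± 0.873 and 5.22 ± 1.28 CPM in JUN EtOH and JUN Dox, a JUN difference of -3.74 ± 0.16 (adjusted p = 8.99e-10) and -4.16 ± 0.16 (adjusted p = 4.02e-10). ST14, matriptase, a membrane protease upstream of the kallikreins, was lower with JUN by 0.62 ± 0.10 (adjusted p = 0.000187) and 0.98 ± 0.10 (adjusted p = 2.76e-06) on the log2 scale. ABCA12, the lipid transporter of lamellar granules, was lower on induction by 1.59 ± 0.19 in vector cells (adjusted p = 2.11e-05) and by 1.47 ± 0.19 in JUN cells (adjusted p = 6.56e-05) on the log2 scale. SERPINB3, a squamous serpin, was lower with JUN with induction by 0.97 ± 0.34 on the log2 scale (adjusted p = 0.0377), a call lost without any 1 of the 6 libraries compared (-0.80 to -1.07). LYPD3, a GPI-anchored protein of suprabasal cells, was at 9.94, 3.69, 29.4 and 5.36 CPM on average, in the order of groups used for RNASE7.

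Of the 10 transcriptional regulators of squamous differentiation counted, 7 were tested. On induction in vector cells 0 were higher and 3 lower, and with JUN 4 were higher and 0 lower without induction and 5 higher and 0 lower with it. The shares of all genes in these comparisons were 15.6% higher and 14.4% lower, 20.1% and 18.9%, and 18.4% and 17.2%. EHF and ELF3 are ETS factors of epithelia. EHF was at 22.4, 26.5 and 20.2 CPM in vector EtOH, 1.96, 2.79 and 1.82 CPM in vector Dox, 41.7, 44.5 and 40.2 CPM in JUN EtOH and 17.6, 24.3 and 20.4 CPM in JUN Dox. EHF fell by 3.40 ± 0.18 on induction in vector cells (adjusted p = 4.29e-09) and by 1.02 ± 0.14 in JUN cells (adjusted p = 0.000152), so that JUN Dox overlapped vector EtOH. ELF3 fell by 3.44 ± 0.26 (adjusted p = 1.36e-07) on induction without the JUN vector and fell by 2.27 ± 0.20 with it (adjusted p = 1.41e-06), and JUN raised it by 1.30 ± 0.18 (adjusted p = 8.42e-05) and 2.48 ± 0.27 (adjusted p = 6.46e-06).

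PRDM1, a repressor that acts late in squamous differentiation, was at 3.69, 3.84 and 3.01 CPM in vector EtOH, 2.57, 4.55 and 4.67 CPM in vector Dox, 35.8, 26.9 and 24.8 CPM in JUN EtOH and 26.7, 27 and 22 CPM in JUN Dox. JUN raised PRDM1 by 3.05 ± 0.21 (adjusted p = 6.12e-08) and 2.68 ± 0.20 (adjusted p = 1.74e-07), and induction differences were 0.16 ± 0.22 and -0.21 ± 0.18 (adjusted p = 0.631 and 0.451). Whether any of these regulators acts on the members was not tested.

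**Figure D5:**
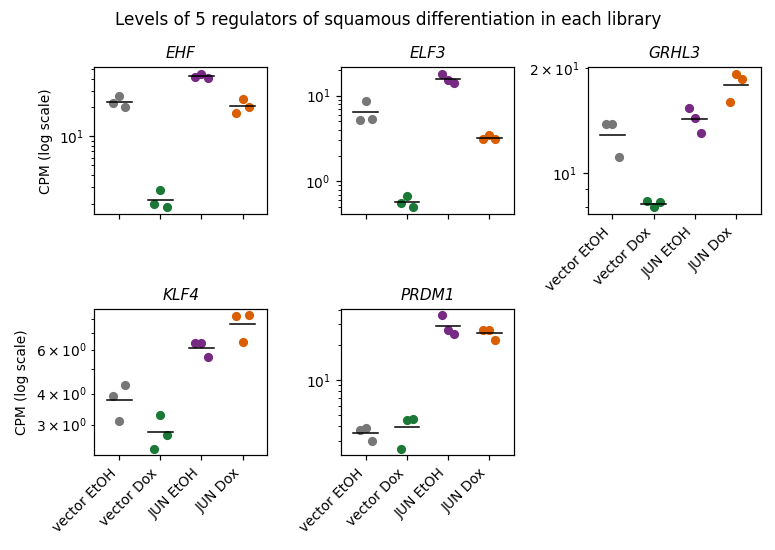
CPM (y axis, log scale, a scale of its own in each panel) of 5 regulators of squamous differentiation in the 3 libraries of each of 4 groups (x axis), with points for libraries and bars for group means. EHF, ELF3 and GRHL3 are lowest in vector Dox, and PRDM1 is below 5 CPM in the vector libraries and at 22 to 35.8 CPM in the JUN libraries.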

How the data were processed

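RNA-Seq gave 12 libraries, 3 per group, described by the study as biological replicates. The authors deposited 1 table of raw read counts, a row per gene, without normalization. According to the study's methods, single-end reads of poly(A) RNA were trimmed with Cutadapt, aligned to hg19 with Bowtie2 at default settings and counted with countOverlaps. The submitters' processing notes name Cutadapt 4.2 and Bowtie2 2.3.5.1. Bowtie2 does not split reads over introns, so reads across exon junctions are largely lost, alike in all libraries. Genes differ in their number of exons (3 in S100A9 and 23 in PPL), so levels per kb of exon compare genes only roughly. The annotation and use of strand are not given in the sources used here.

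Counts were scaled with TMM factors to library size (CPM), and genes were filtered with filterByExpr (minimum count 10, minimum total count 15). A quasi-likelihood model with a mean per group was fitted to all 12 libraries and 14775 genes in edgeR 4.0.16 (R 4.3.3), with Benjamini-Hochberg adjustment over these genes and calls at an adjusted p under 0.05. SE is the log2 difference divided by the square root of F. The fit was tested on simulated data with known changes. A group at 3 counts or fewer in every library was treated as at the floor (0.107 to 0.15 CPM), which covers counting error only, since reads carried no molecular identifiers. The alternatives were DESeq2 1.42.0, RLE or upper-quartile factors, no filter, only the libraries of a comparison, a replicate block and leaving out each library.

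The members and lists were chosen with earlier results of these data known. All members were named. Of the other genes of the programme, those named were the called genes with the highest and lowest log2 difference in each comparison (at most 3 each way, mean of at least 5 CPM, groups without overlap). A further gene of these lists is not reported here and was left out of their counts. Symbols matched 99.4% of the gene IDs. Positions are those of GENCODE v44lift37 (GRCh37, the assembly of hg19) and promoters those of RefSeq (GRCh38.p14). The motifs and both gene clusters were chosen after seeing the data.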

Additional observations from a re-analysis of the deposited data

Results flagged for a closer look

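The interaction is the log2 response to induction of JUN cells less that of vector cells. It passed the test for 4 genes among the members and the other genes of the programme (edgeR, adjusted over all genes tested). Among the cell type markers it passed for CDH1 (-1.03 ± 0.17, adjusted p = 0.00541). It was -1.27 ± 0.28 for PI3 (adjusted p = 0.0408), which was higher on induction in vector cells and passed no test in JUN cells. It was -1.03 ± 0.22 for LYPD3 (adjusted p = 0.0282), which fell by 1.42 ± 0.16 in vector cells and by 2.46 ± 0.15 in JUN cells. That call of LYPD3 was lost without JUN Dox replicate 3 (-0.96), JUN EtOH replicate 1 (-0.96) or replicate 2 (-0.96), vector Dox replicate 1 (-0.93) or replicate 3 (-1.09), and vector EtOH replicate 1 (-1.02) or replicate 3 (-0.98). It was 0.99 ± 0.17 for GRHL3 (adjusted p = 0.00967), a grainyhead factor of barrier formation at 13.8, 13.8 and 11.1 CPM in vector EtOH, 8.33, 7.98 and 8.26 CPM in vector Dox, 15.4, 14.4 and 13 CPM in JUN EtOH and 16, 19.2 and 18.6 CPM in JUN Dox. It was 2.38 ± 0.23 for EHF (adjusted p = 6.13e-05), which fell on induction in both kinds of cell and by less in JUN cells. The calls of GRHL3 and EHF stood in all 17 alternatives, and that of PI3 was lost in 11.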

How the results depend on the processing

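No call of a member reversed its direction under any alternative. The JUN calls were the firmest: 14 of 16 without induction and 12 of 14 with induction stood under every alternative, against 5 of 11 for induction in vector cells and 4 of 10 in JUN cells. With each library left out in turn, the number of members called was 9 to 12 for induction in vector cells, 14 to 15 for JUN without induction, 5 to 8 for induction in JUN cells, 12 to 15 for JUN with induction and 0 to 1 for the interaction. The shares of all genes called under these alternatives were not counted. The interaction called 2 members with DESeq2 (PI3 and EMP1), 0 without the filter on low counts and 0 with the replicate block. RLE and upper-quartile factors changed no call. The replicate numbers were not taken as pairs, since the labels do not tie them to a shared batch and 7 of 18 same-numbered pairs correlated above 0.1 (from -0.258 to 0.466). The best match had the same number in 22 of 36 tries, where 12 would follow from 3 candidates a try, and all 6 pairs of replicate 3 were above 0 (0.074 to 0.466), so some shared deviation by number is a hint from the data. The replicate block lost 3 calls (IVL and SPRR2A for induction in JUN cells, adjusted p = 0.0541 and 0.0507, and PI3 for the interaction, 0.0649) and gained 1 (EVPL for induction in vector cells, -0.38, adjusted p = 0.0283). Without the filter 9 calls were lost, those of S100A8 (adjusted p = 0.0947 and 0.124) and S100A9 (0.0553 and 0.0711) on induction in both kinds of cell among them. DESeq2 gained 5 calls and lost 0. The cause was not tested. Genes near or below 1 CPM rest on few reads per library, which limits IVL, SPRR1B, SPRR2A, SPRR2D and S100A7.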
